A study of Arabidopsis thaliana with 24 samples.

Results

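The same light treatment, low red to far-red light over the whole rosette, was followed at the far ends of a single Arabidopsis thaliana leaf, and the quantity reported is how differently the 2 ends responded. For each gene it is the change under whole far-red light in the leaf tip minus the change in the petiole base, on the log2 scale, so that positive values mark the genes whose effect was higher in the tip and negative values those whose effect was higher in the petiole base. It rests on 12 of the 24 arrays of the series, 3 in each of 4 groups. All plants were 28 d old, grew singly in pots at 20 °C with 9 h of light per day at 140 µmol m-2 s-1, and were sampled 5 h after the treatment began. The control plants stayed in white light with a red to far-red ratio of 2.3. The whole far-red plants received the same amount of photosynthetic light at a ratio of 0.05 over the whole rosette, tip and base alike. The leaf tip piece was the uppermost 2.5 mm of the blade, the piece of petiole base its lowest 1.5 mm, both cut from the fifth-youngest leaf. Local far-red plants, which received the low ratio in the leaf tip only, and touched plants in white light provided 12 further arrays, which are compared below only for the same difference. The labels describe 3 independent biological replicates per group. The plants' natural accession is not given in the sources used here.

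Plants read the red to far-red ratio with phytochromes. Under a low ratio phytochrome B loses activity, and PHYTOCHROME INTERACTING FACTORS (PIFs) then switch on genes for auxin synthesis and growth. In leaves, auxin made in the blade moves to the petiole, where growth lifts and lengthens the leaf. Cells that elongate loosen and rebuild their walls with expansins, xyloglucan-modifying enzymes and newly made polysaccharides. Low red to far-red light is also known to lower anthocyanin pigmentation.

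The tip and base pieces differed in SWEET11 and PYK10 on the arrays of both treatments. Both genes were chosen with earlier results of these data known, so they are no independent check of the tissue. SWEET11, a sucrose exporter of the leaf phloem, lay between 8.85 and 9.17 on the 6 tip arrays and between 0.96 and 1.58 on the 6 base arrays. PYK10, a beta-glucosidase found in endoplasmic reticulum bodies, showed the opposite arrangement, between 1.83 and 2.77 in the tip and between 9.77 and 10.94 in the base. Neither gene had a called difference of effects, at -0.11 ± 0.26 (SE, adjusted p = 0.884) for SWEET11 and 0.44 ± 0.39 (adjusted p = 0.612) for PYK10. Arrays within a group correlated at 0.980 to 0.992 over all probe sets, with no array apart from its group by this measure. The deposited values are log2 signals, so all levels and differences below are in log2 units, and levels of different genes are not compared.

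The whole far-red effect differed between tip and base for 1464 of the 17504 annotated probe sets (8.36%) at a Benjamini-Hochberg adjusted p under 0.05 in limma. Of these, 716 had the higher effect in the tip (4.09% of those tested) and 748 in the base (4.27%), and 834 differed by 2-fold or more. The difference itself was tested, so a probe set counts only where tip and base effects were separated beyond the spread of the arrays. In the tissues taken alone, whole far-red light changed 1384 probe sets in the tip (7.91%) and 2323 in the base (13.3%). Of the calls in the base 40.8% also had a called difference between the tissues, and of those in the tip 39.6%. Over all tested probe sets the tip and base effects, which share no array, correlated at r = 0.20 and had the same sign in 54.2%. This correlation is across genes of the same arrays and describes them without a test.

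Most of the differing probe sets changed in the base. Probe sets called in the base only made up 798 of the 1464 (54.5%), of which 477 rose and 321 fell. Those called in the tip only numbered 398 (27.2%), with 236 that rose and 162 that fell. Both tissues moved in the same direction by different amounts for 57 (3.89%), and in opposite directions for 93 (6.35%). Of the opposite ones, 57 rose in the tip and fell in the base and 36 did the reverse. The former count was 33 without whole far-red leaf tip array 1 and 36 without control leaf tip array 3. Neither tissue's own effect was called for the remaining 118. Among the 477 that rose in the base only, 41 had a control level in the tip under the 25th percentile of tested probe sets (1.33), where a fall in the tip could not have been seen. The same held for 8 of the 321 that fell in the base only. Of the 162 that fell in the tip only, 17 had a control level in the base under its 25th percentile (1.18), which limits a fall there.

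**Figure D1:**
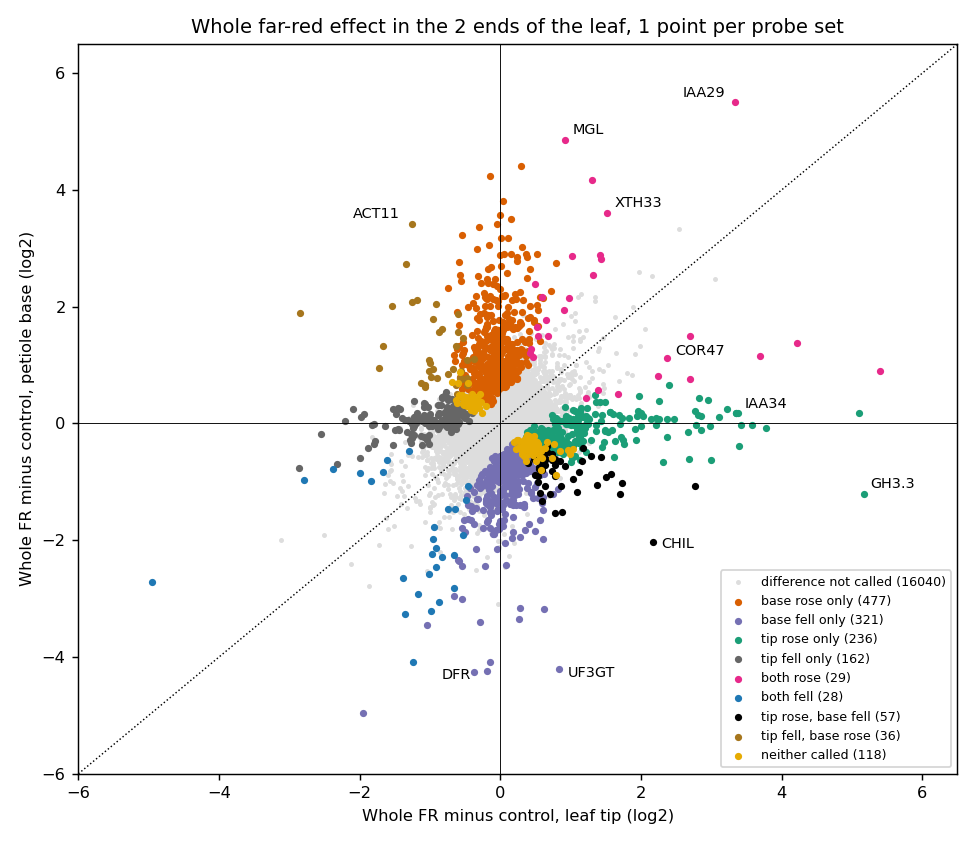
Whole far-red minus control in the leaf tip (horizontal, log2) against the same difference in the petiole base (vertical, log2), 1 point per tested probe set, coloured by pattern where the difference between the tissues was called. The dotted diagonal marks equal effects. Called points lie mostly along the vertical axis, 477 above and 321 below it, with a smaller arm of 236 along the right of the horizontal axis.

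Auxin-related genes gave both the largest difference in the direction of the tip and a difference in the direction of the base. GH3.3 (AT2G23170), an enzyme that attaches amino acids to auxin and is itself induced by auxin, had levels of 2.24, 1.61 and 1.62 on the control tip arrays and 6.83, 6.52 and 7.63 under whole far-red. In the base its control levels were 2.66, 2.05 and 5.22, and its whole far-red levels 2.41, 1.86 and 2.05. The tip groups were far apart, while the base groups overlapped and control array 3 alone was high. GH3.3 rose 35.9-fold in the tip (adjusted p = 9.55e-07), its effect in the base was -1.2 (adjusted p = 0.175), and the difference of effects was 6.36 ± 0.75 (SE, adjusted p = 5.74e-06). Without control petiole base array 3 the difference was 5.41.

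IAA34 (AT1G15050), a member of the Aux/IAA family of auxin response repressors, also responded in the tip alone. Its tip levels were 2.0, 1.86 and 1.43 in control and 5.44, 4.76 and 5.24 under whole far-red, a 10.4-fold rise. Its base levels stayed between 1.21 and 1.56 on all 6 arrays, and the difference of effects was 3.21 ± 0.25 (adjusted p = 1.77e-08). IAA29 (AT4G32280), another Aux/IAA gene and a marker of the shade response, rose in both tissues. Its tip levels were 4.87, 4.68 and 4.97 in control and 8.09, 8.48 and 7.99 under whole far-red. In the base they were 1.23, 1.19 and 1.3 in control, close to the 25th percentile of base control levels (1.18), and 6.40, 7.27 and 6.54 under whole far-red. Groups did not overlap in either tissue. The fitted rise was 45.2-fold in the base, a size that is uncertain because it starts near the low end of the signals, and 10.1-fold in the tip. The difference was -2.16 ± 0.44 (adjusted p = 0.00237), and after treatment the base still lay below the tip.

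The other 13 of 16 measured auxin response probe sets, among them WES1, GH3.17 and IAA18, had no called difference. The list's median of -0.15 stood beside -0.01 for all tested probe sets. Here and below, measured members of a list are those that matched it by symbol or synonym. Genes without a match were not counted, though they may be on the array. Of the 4 measured auxin synthesis genes none was called. YUC2, a flavin monooxygenase of auxin synthesis, read 2.60, 3.26 and 3.99 in control tips and 4.17, 4.31 and 4.14 under whole far-red. In the base it stayed between 1.08 and 1.41. YUC2 rose in the tip by 0.92 (adjusted p = 0.0128), but its difference of 0.83 ± 0.32 did not pass (adjusted p = 0.132).

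All 3 measured shade markers rose in both tissues, and IAA29 was the only one of them with a called difference. FHL (AT5G02200), which helps carry phytochrome A into the nucleus, rose from 2.74, 2.38 and 2.61 to 5.40, 5.23 and 4.73 in the tip and from 2.98, 2.65 and 2.73 to 6.20, 5.98 and 6.16 in the base. Both rises passed, and the difference of -0.78 ± 0.38 did not (adjusted p = 0.256). HAT2, a homeodomain leucine zipper factor induced by auxin and shade, rose by 0.66 in the tip and 0.87 in the base, with a difference of -0.22 ± 0.26 (adjusted p = 0.725). Both measured genes of phytochrome and light signalling were called. PIF7 (AT5G61270), a PIF with a leading part in the shade response, fell in both. Its levels went from 6.76, 6.74 and 6.83 to 5.72, 5.27 and 5.44 in the tip and from 4.15, 4.18 and 3.91 to 3.35, 3.84 and 3.64 in the base. The fall in the tip was the larger, with a difference of -0.83 ± 0.22 (adjusted p = 0.0190). HYH, a bZIP factor of light signalling related to HY5, rose in the base only, by 1.3, from control levels of 0.93 to 1.14 that lay near the low end of the signals, and its difference was -1.15 ± 0.26 (adjusted p = 0.00687).

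**Figure D2:**
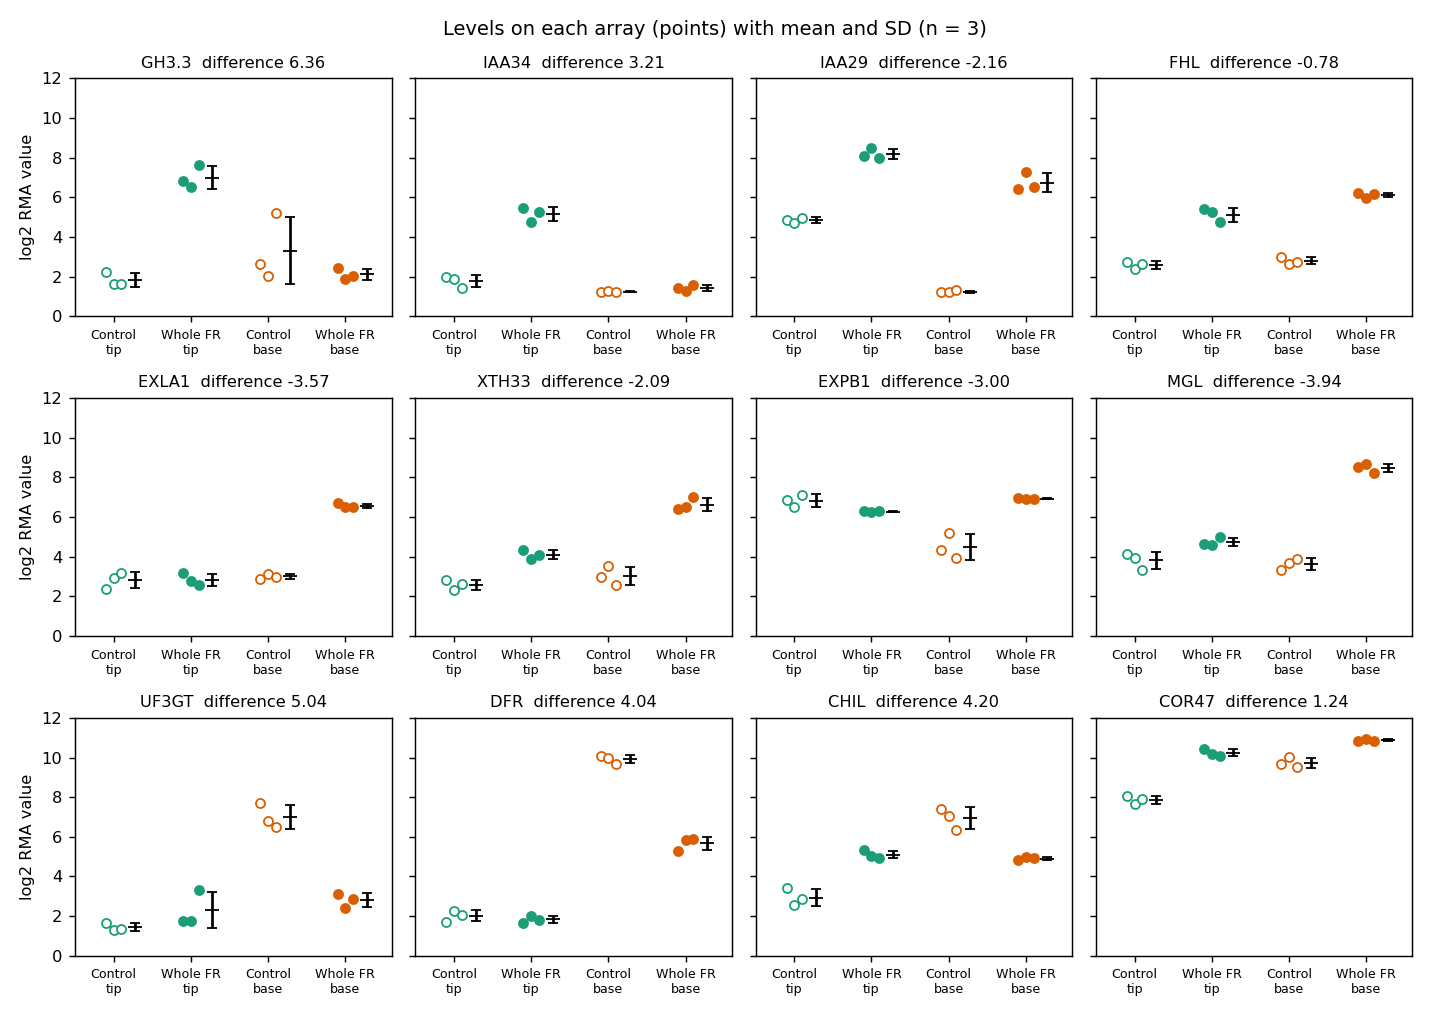
Levels of 12 genes (log2 RMA values) on each array, with leaf tip in green and petiole base in orange, open points for control and filled points for whole far-red, and a bar for the mean ± SD of 3 arrays. GH3.3 and IAA34 rose in the tip, EXLA1 and EXPB1 in the base, and UF3GT and DFR fell in the base from control levels above 6. Control base array 3 of GH3.3 stands at 5.22.

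Among wall-loosening genes more calls had the higher effect in the base than in the tip. The lists were matched mostly by symbol, and of the 1777 probe sets whose gene has a symbol 12.6% had a called difference, against 8.36% of all tested. Of 35 measured probe sets for expansins and xyloglucan endotransglucosylase/hydrolases (XTHs), the signed effect was higher in the base for 11, higher in the tip for 3, and had no called difference for 21. In the base 11 rose (7.18% of all tested probe sets rose there) and 3 fell (6.10% of all), while in the tip 4 rose (4.01% of all) and 1 fell (3.90% of all). The median difference was -0.25 against -0.01 over all tested probe sets, and 6 members lay under the 25th percentile of tested probe sets in both controls.

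EXLA1 (AT3G45970), an expansin-like protein, lay between 2.39 and 3.19 on all tip arrays of both groups. In the base it went from 2.90, 3.15 and 2.99 to 6.69, 6.52 and 6.52, an 11.8-fold rise, with a difference of -3.57 ± 0.26 (adjusted p = 1.13e-08). EXLA2 (AT4G38400), its relative, lay between 1.93 and 2.97 in the tip and went from 4.43, 4.61 and 3.96 to 7.18, 7.20 and 7.20 in the base. In both genes the tip groups overlapped and the base groups did not. The difference for EXLA2 was -2.62 ± 0.30 (adjusted p = 3.50e-06).

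The expansins EXPB1 and EXPA8 began higher in the tip and ended higher in the base. EXPB1 (AT2G20750) read 6.87, 6.51 and 7.13 in control tips and 6.29, 6.24 and 6.29 under whole far-red. In the base it rose 5.40-fold, from 4.32, 5.22 and 3.93 to 6.94, 6.89 and 6.94. The difference of effects was -3.00 ± 0.35 (adjusted p = 4.68e-06). EXPA8 (AT2G40610) stayed between 8.49 and 9.13 in the tip and rose 6.45-fold in the base, from 7.84, 7.35 and 6.94 to 10.13, 10.05 and 10.02. Its difference was -2.82 ± 0.33 (adjusted p = 4.09e-06).

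Among the XTHs, which cut and rejoin xyloglucan chains, XTH33 (AT1G10550) rose in both tissues. Its tip levels went from 2.81, 2.32 and 2.62 to 4.33, 3.86 and 4.09 and its base levels from 2.98, 3.52 and 2.58 to 6.39, 6.51 and 6.99. With a 2.85-fold rise in the tip and a 12.1-fold rise in the base, the difference was -2.09 ± 0.30 (adjusted p = 5.99e-05). XTH16 rose 6.73-fold in the base, its tip effect of 0.79 was not called (adjusted p = 0.0841), and its difference was -1.96 ± 0.38 (adjusted p = 0.00169). The other 5 probe sets with a higher base effect were EXGT-A3, EXLA3, EXPA9, EXLB1 and XTH19, with differences from -0.98 to -1.66. They and the 3 with a higher tip effect were singled out after their values were seen. Of those 3, EXPA4 fell by 1.33 and EXPB3 fell by 1.23 in the base with no called change in the tip, whereas XTH32 rose by 1.16 in the tip with no called change in the base.

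Among genes for making wall polysaccharides and microtubules, too, the calls had the higher effect in the base. The difference was called for 5 of 12 measured probe sets for cellulose, xyloglucan and secondary wall synthesis (41.7%). Of all probe sets with a symbol 12.6% were called. The 5 had the higher effect in the base, none had it in the tip, and the median difference was -0.56. In the base 6 rose and none fell, where 7.18% of all tested probe sets rose and 6.10% fell. CSLC04 (AT3G28180), which makes the xyloglucan backbone, went from 9.15, 9.52 and 8.86 to 10.47, 10.56 and 10.74 in the base and from 8.46, 8.53 and 8.57 to 8.40, 8.22 and 8.12 in the tip. Only the base change was called, and the difference was -1.69 ± 0.23 (adjusted p = 2.69e-05). CSLC6, of the same family, rose by 0.98 in the base and had a difference of -1.17 ± 0.18 (adjusted p = 0.00016). COB, a membrane-anchored protein needed for oriented cellulose deposition, rose by 0.77 in the base and had a difference of -0.61 ± 0.16 (adjusted p = 0.0199). CSLA03, a mannan synthase, moved in opposite directions, at -0.90 in the tip and 0.78 in the base. CSLB03 fell by 1.36 in the tip without a called change in the base. The list's 5 calls became 3 without control petiole base array 1, control leaf tip array 3 or whole far-red petiole base array 3.

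Of 7 tubulin probe sets, 5 rose in the base and 2 in the tip, where 7.18% and 4.01% of all tested probe sets rose. The difference was called for 2 (28.6%, beside 12.6% of all probe sets with a symbol), a small count. TUB6, a beta-tubulin, went from 8.08, 8.45 and 7.70 to 9.66, 9.84 and 9.69 in the base and from 6.42, 6.47 and 6.75 to 7.05, 7.21 and 6.94 in the tip. Both rises passed and the base rise was the larger, with a difference of -1.13 ± 0.22 (adjusted p = 0.00169). TUB5 rose by 0.69 in the base, had no called tip effect, and differed by -1.04 ± 0.26 (adjusted p = 0.0116). ACT11 (AT3G12110), an actin, had the second-lowest difference of all named genes. Its tip levels went from 4.42, 2.69 and 3.35 to 2.08, 2.01 and 2.61 and its base levels from 4.29, 4.04 and 4.64 to 7.82, 7.88 and 7.54. The groups separated in both tissues in opposite directions, and the difference was -4.67 ± 0.46 (adjusted p = 5.37e-07).

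RALFL33, THE1 and EXO were among the 15 lowest differences with a symbol. RALFL33, a secreted RALF peptide, rose 4.54-fold in the base, from 4.53, 4.17 and 3.77 to 6.52, 6.18 and 6.32, and its tip groups overlapped (difference -2.52 ± 0.31, adjusted p = 9.33e-06). It was the only one called of 15 RALFL probe sets (6.67%). THE1, a receptor kinase that monitors the cell wall and belongs to the family whose members bind RALF peptides, rose from 5.61, 5.68 and 5.49 to 7.79, 6.98 and 7.64 in the base. In the tip THE1 fell by 0.60 (adjusted p = 0.0440), and its difference was -2.48 ± 0.26 (adjusted p = 1.05e-06). FER, a related receptor named here after its values were seen, rose by 0.81 in the base and differed by -0.75 ± 0.19 (adjusted p = 0.0150). EXO, an extracellular protein of cell expansion, rose 7.20-fold in the base from levels of 1.35 to 2.17, and its tip stayed under 2 on all arrays (difference -2.47 ± 0.28, adjusted p = 2.80e-06).

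MGL (AT1G64660), a methionine gamma-lyase that breaks down methionine, rose strongly in the base and weakly in the tip. It went from 3.31, 3.67 and 3.91 to 8.52, 8.66 and 8.24 in the base, 28.8-fold, and from 4.15, 3.95 and 3.35 to 4.64, 4.58 and 4.97 in the tip, 1.88-fold. The groups separated in both tissues, and the difference was -3.94 ± 0.32 (adjusted p = 3.65e-08). HMT-1, a homocysteine methyltransferase that makes methionine, rose 9.07-fold in the base while its tip groups overlapped (difference -3.17 ± 0.35, adjusted p = 2.44e-06). For CBL, the cystathionine beta-lyase of methionine synthesis, the tip minus base contrast went from -0.90 in control leaves to 0.34 under whole far-red. MSRB9 and MSRB4, methionine sulfoxide reductases, went apart, with MSRB9 rising 7.48-fold and MSRB4 falling 5.42-fold in the base and neither called in the tip.

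Transcription factors of the bZIP family were called 4 times of 24 (16.7%, beside 12.6% of all probe sets with a symbol), each with the higher effect in the base, where 7 members rose and none fell. BZIP61 (AT3G58120) moved in opposite directions. Its levels went from 7.13, 7.28 and 7.13 to 6.21, 6.14 and 5.63 in the tip and from 7.11, 7.29 and 6.86 to 9.06, 9.25 and 9.26 in the base. Control levels of the 2 tissues overlapped, treated levels did not, and the difference was -3.30 ± 0.23 (adjusted p = 4.81e-09). BZIP34, a close relative, rose by 1.57 in the base only and differed by -1.80 ± 0.24 (adjusted p = 2.65e-05). bZIP44 rose by 0.95 in the base (difference -0.94 ± 0.28, adjusted p = 0.0418), and HYH is described above. PHE1, a MADS-box factor, rose 10.3-fold in the base, and its array signal may include its near-identical paralog (difference -3.68 ± 0.56, adjusted p = 0.000135).

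Several of the lowest differences belonged to loci that carry no symbol in the reference table. AT1G06360 had the lowest of all at -4.74 ± 0.47 (adjusted p = 5.44e-07). It fell from 4.37, 4.88 and 5.32 to 1.91, 2.37 and 1.75 in the tip and rose from 6.54, 5.62 and 7.12 to 8.21, 8.36 and 8.41 in the base. AT3G05150 rose in the base from 1.2, 1.40 and 1.35 to 5.43, 5.30 and 5.96 and stayed between 1.22 and 1.48 in the tip (difference -4.39 ± 0.22, adjusted p = 4.97e-11). AT4G33420, AT5G45670, AT2G19660, AT3G54510, AT2G30930 and AT3G24715 followed with differences from -3.45 to -4.11. Of these 8 loci, AT1G06360, AT5G45670 and AT2G30930 fell in the tip as they rose in the base, and the other 5 had no called tip effect.

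Pigment genes formed the opposite group, with a fall in the base and no called change in the tip. In the tip DFR, UF3GT and AT5MAT, described below, had little signal to lose. Of 8 measured probe sets of the flavonoid and anthocyanin list, 5 (62.5%) had the higher effect in the tip and none in the base. Among all probe sets with a symbol 12.6% had a called difference. All 5 of the list fell in the base, where 6.10% of all tested probe sets fell. None of the 8 was called in the tip, and the median difference was 1.28. The entry CHI of this list is a chitinase in the reference table that shares its symbol with chalcone isomerase, and it was not called. DFR (AT5G42800), the reductase that commits flavonoids to anthocyanin, read 10.09, 9.98 and 9.68 in control bases and 5.31, 5.85 and 5.90 under whole far-red, an 18.8-fold fall. On the 6 tip arrays it lay between 1.67 and 2.28, so that there was little signal in the tip to lose, and the difference was 4.04 ± 0.45 (adjusted p = 2.20e-06).

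UF3GT (AT5G54060), a glycosyltransferase that adds a sugar to anthocyanins, went from 7.70, 6.79 and 6.51 to 3.1, 2.43 and 2.87 in the base, 18.4-fold lower. In the tip it read 1.68, 1.32 and 1.34 in control and 1.74, 1.78 and 3.34 under whole far-red, where array 3 was the high one and the effect of 0.84 was not called (adjusted p = 0.160). The difference was 5.04 ± 0.49 (adjusted p = 3.73e-07). AT5MAT (AT3G29590), which attaches malonate to anthocyanins, fell 10.2-fold in the base from 8.44, 8.39 and 8.16 to 4.91, 5.07 and 4.96 and lay between 1.38 and 2.41 in the tip (difference 3.62 ± 0.28, adjusted p = 1.77e-08). For UF3GT and AT5MAT, too, a fall in the tip could hardly have shown. Control tip levels of tested probe sets had a 25th percentile of 1.33 and a median of 2.58. UGT78D2 and UGT78D1, flavonoid glycosyltransferases, differed by 1.80 and 0.77. The list's 5 calls became 3 without control leaf tip array 1, whole far-red leaf tip array 1, control petiole base array 1 or whole far-red petiole base array 3.

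CHIL (AT5G05270), a chalcone isomerase-like protein that assists flavonoid synthesis, parted from this pattern by rising in the tip. Its tip levels went from 3.40, 2.55 and 2.85 to 5.31, 5.04 and 4.95 and its base levels from 7.40, 7.08 and 6.34 to 4.83, 4.96 and 4.93. Under whole far-red the arrays of the 2 ends overlapped. The difference of 4.2 ± 0.44 (adjusted p = 1.07e-06) thus joined a 4.49-fold rise to a 4.10-fold fall. Loci without a symbol also fell in the base with tip groups that overlapped. AT3G44970 fell 19.0-fold, AT1G03940 17.0-fold and AT1G03495 9.03-fold.

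The measured members of the abscisic acid and cold list rose in the tip. They were COR47, COR15A, COR15B, LTI30, KIN1 and KIN2, so the list's genes of abscisic acid synthesis and signalling were not covered. All 6 rose there, beside 4.01% of all tested probe sets. For 5 (83.3%, beside 12.6% of all probe sets with a symbol) the difference was called with the higher effect in the tip. None had the higher effect in the base, and the median difference was 1.44. COR47 (AT1G20440), a dehydrin that protects cells under water and cold stress, rose in both tissues, 5.16-fold in the tip and 2.18-fold in the base. Its levels went from 8.07, 7.67 and 7.91 to 10.45, 10.20 and 10.10 in the tip and from 9.70, 10.03 and 9.52 to 10.85, 10.94 and 10.84 in the base (difference 1.24 ± 0.22, adjusted p = 0.000617). LTI30 (AT3G50970), another dehydrin, moved in opposite directions. It went from 1.71, 2.65 and 2.21 to 3.76, 3.89 and 3.05 in the tip and from 3.76, 4.04 and 2.85 to 2.61, 2.07 and 2.79 in the base, with a difference of 2.43 ± 0.45 (adjusted p = 0.00107).

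KIN2, a small cold-induced protein, rose by 1.13 in the tip, its base effect of -0.63 was not called (adjusted p = 0.0516), and its difference was 1.77 ± 0.30 (adjusted p = 0.00042). Its near-identical neighbour KIN1, whose probes may read the same transcripts, differed by 1.47 ± 0.32 (adjusted p = 0.00501). COR15A, a chloroplast protein of cold tolerance, rose by 1.35 in the tip and differed by 0.87 ± 0.26 (adjusted p = 0.0426). COR15B, its paralog, was the member without a called difference.

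Autophagy, glucosinolate and sugar-handling genes gave smaller groups, to be read beside the 12.6% of all probe sets with a symbol that were called. Of 11 autophagy probe sets, 3 (27.3%) had the higher effect in the tip and none in the base, with a median of 0.40. All 3 belong to the ATG8 family of proteins that coat the autophagosome membrane. APG8A rose by 1.19 and APG8H by 0.88 in the tip, and ATG8F fell by 0.69 in the base. Of 12 glucosinolate and endoplasmic reticulum body probe sets, 3 (25%) had the higher effect in the tip, and each fell in the base. These were JAL22, a jacalin-related lectin (difference 2.21), UGT74B1, a glucosyltransferase of glucosinolate synthesis (1.60), and GTR2, a glucosinolate transporter (1.10).

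APL3 (AT4G39210), a large subunit of the starch enzyme ADP-glucose pyrophosphorylase, rose from 5.46, 5.77 and 6.11 to 7.58, 7.43 and 7.17 in the tip and had overlapping base groups (difference 2.20 ± 0.30, adjusted p = 3.08e-05). SWEET16, a vacuolar sugar carrier, went the other way in each tissue, at -1.01 in the tip and 1.08 in the base (difference -2.10 ± 0.33, adjusted p = 0.000206). In the list of carbon fixation, starch and sugar as a whole 4 of 22 (18.2%) were called, 2 in each direction. The share among all probe sets with a symbol was 12.6%. Of 60 probe sets for UDP-glycosyltransferases, 8 had the higher effect in the tip and 1 in the base, together 15% beside 12.6% of all probe sets with a symbol, and 12 fell in the base. The pigment and glucosinolate enzymes UF3GT, UGT78D1, UGT78D2 and UGT74B1 were 4 of these 8.

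Genes with a symbol that rose in the tip and fell in the base included AGO7, an Argonaute protein of the trans-acting siRNA pathway, which went from 5.37, 5.32 and 4.90 to 6.12, 5.69 and 6.11 in the tip and from 5.01, 5.00 and 4.93 to 3.71, 2.92 and 3.72 in the base. Neither tissue's groups overlapped, and the difference was 2.31 ± 0.27 (adjusted p = 5.60e-06). THI2.2, a thionin, rose 3.32-fold in the tip and fell 2.03-fold in the base (difference 2.75 ± 0.38, adjusted p = 4.30e-05). UGT72B3 rose 2.84-fold in the tip and fell 1.89-fold in the base. DJ1F, of the DJ-1 protein family, fell in both tissues, 2.36-fold in the tip and 17.0-fold in the base, from 8.62, 8.77 and 8.51 to 5.16, 4.04 and 4.45 (difference 2.85 ± 0.31, adjusted p = 2.10e-06).

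Loci without a symbol also marked the tip. AT2G47780 rose 42.0-fold in the tip, from 1.89, 1.28 and 2.06 to 7.18, 6.85 and 7.38, and 1.85-fold in the base, with a difference of 4.50 ± 0.29 (adjusted p = 1.60e-09). AT1G70640 rose 13.7-fold and AT5G62210 10.5-fold in the tip with overlapping base groups. AT5G10410 rose 7.99-fold in the tip, and its base effect of -0.63 was not called (adjusted p = 0.0521).

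**Figure D3:**
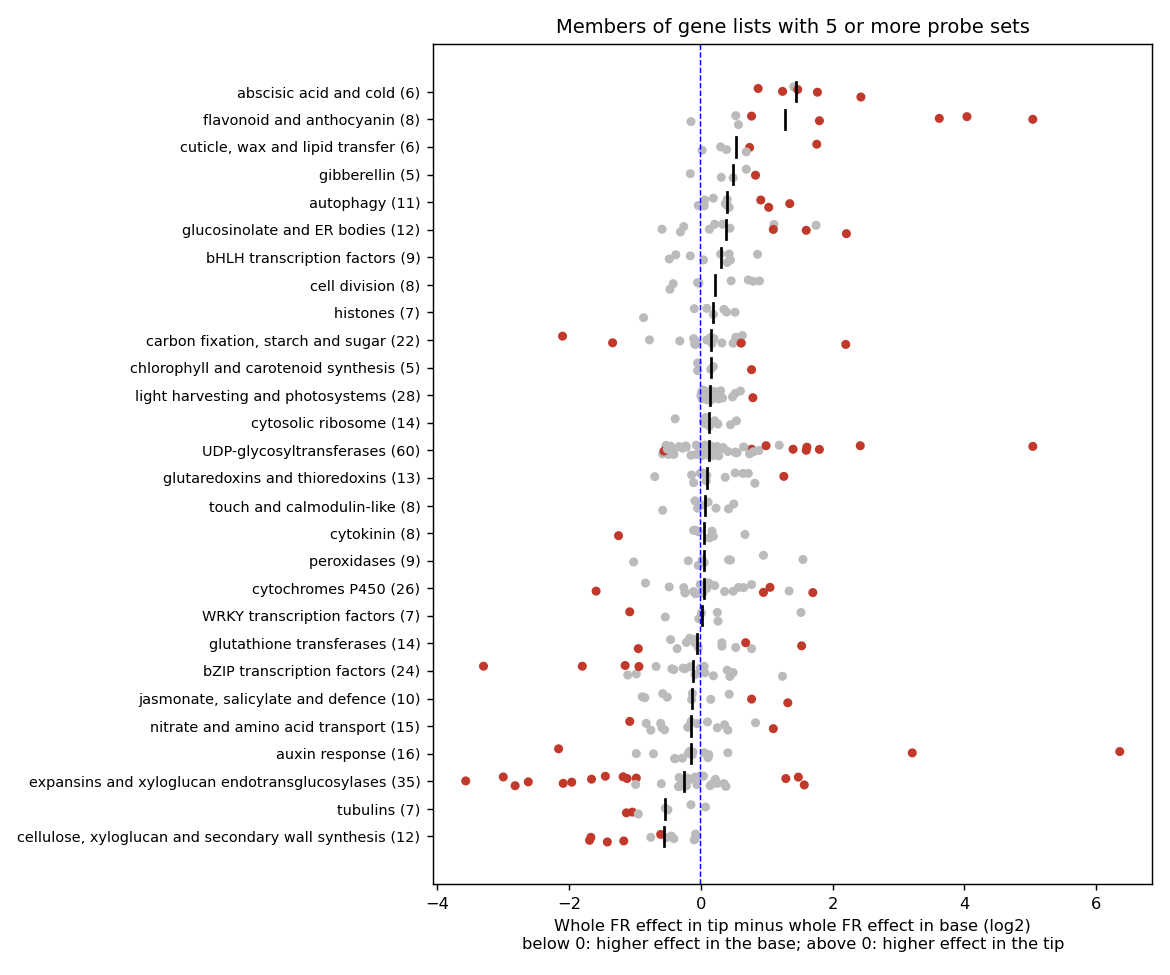
Difference of whole far-red effects, tip minus base (log2), for each member of the gene lists with 5 or more probe sets, with called members in red, others in grey, the list's median as a black bar and the median of all tested probe sets as a dashed line. The abscisic acid and cold list and the flavonoid list lie to the right, with medians of 1.44 and 1.28. The wall synthesis and tubulin lists lie to the left, at -0.56 and -0.54.

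Many lists held few or no differing genes. Light-harvesting and photosystem genes had 1 call of 28, LHCB4.2, whose tip levels overlapped while its base levels fell by 0.69 (difference 0.79 ± 0.20, adjusted p = 0.0135). Of 5 chlorophyll and carotenoid synthesis genes PORB was called, a protochlorophyllide reductase that fell by 0.94 in the base (difference 0.77 ± 0.15, adjusted p = 0.00137). No difference was called among 8 cell division, 7 histone, 8 touch and calmodulin-like, 9 peroxidase or 9 bHLH probe sets. The list for cytosolic ribosomes, which matched mostly plastid genes, had none called of 14. In the jasmonate list MYC3 and MYC4, factors of jasmonate signalling, had the higher effect in the tip, and in the gibberellin list so did the receptor GID1A. None of them had a called change in the tip. MYC3 fell by 0.82 in the base. MYC4 (0.84 in the tip, -0.48 in the base) and GID1A (0.41 and -0.41) had no called effect in either tissue. RR16, a response regulator of cytokinin signalling, fell by 1.17 in the tip only.

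The calls of some named genes did not hold when 1 array was left out. Of the named genes 120 were called, and 99 of them passed in each of the 12 fits that left out 1 array of the 4 groups. The other 21 missed the threshold in 3 (COB, PIF7) to 10 (COR15A) of these 12 fits, so their calls did not rest on 1 particular array. Those described above are COB, CSLB03, EXPA9, COR15A, UGT78D1, UGT78D2, PIF7, MYC3, MYC4, RR16 and bZIP44.

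Whole far-red light changed the contrast between the ends of the leaf that control leaves already had. Tip and base differed for 5028 probe sets in control leaves (28.7%) and for 6135 under whole far-red (35%), of which 2822 were higher in the tip (16.1%) and 3313 lower (18.9%), on the same arrays that enter the difference of effects. Of the 1464, the tip to base contrast was called only under whole far-red for 627 (42.8%) and only in control for 198 (13.5%). It was called in both for most of the rest, wider under whole far-red for 456 (31.1%), narrower for 86 (5.87%) and turned round for 79 (5.40%). The turned probe sets included 18 genes with a symbol. GH3.3 had a contrast, tip minus base, of -1.48 in control leaves, a value that includes the high control base array 3, and of 4.88 under whole far-red. EXPB1 stood 2.35 higher in the tip in control and at -0.65 under whole far-red. For EXPA8 the contrast went from 1.56 to -1.26, for LTI30 from -1.36 to 1.07 and for THI2.2 from -1.75 to 1.0. CHX16, a cation/proton exchanger, went from -1.43 to 0.76, and THFS, an enzyme of folate metabolism, from -1.04 to 0.67.

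**Figure D4:**
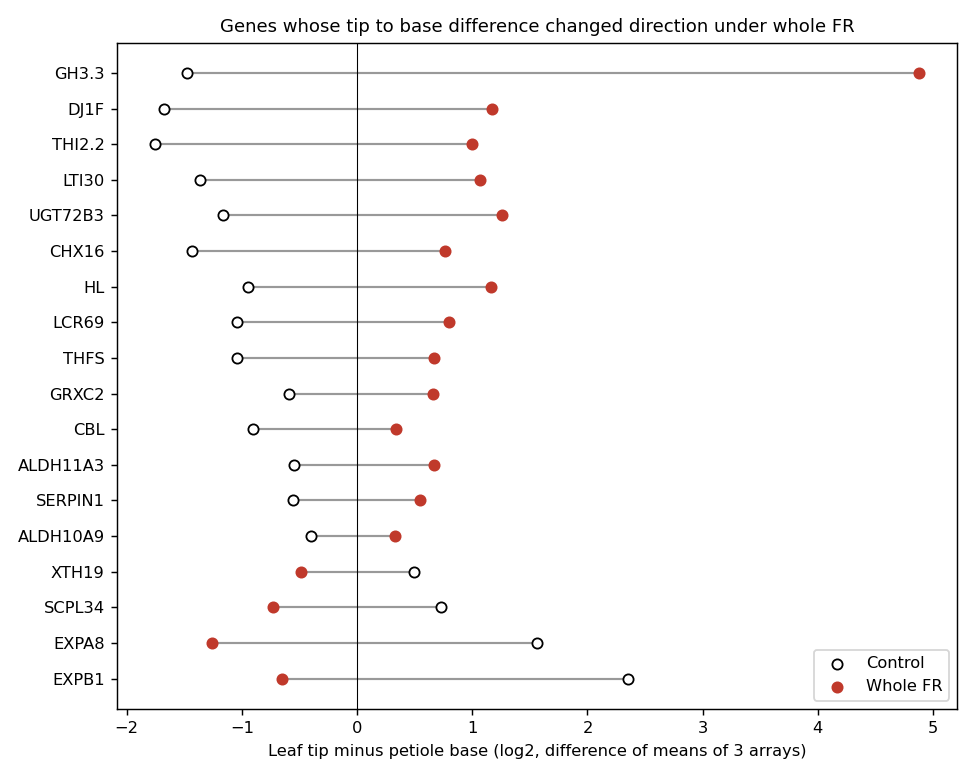
Leaf tip minus petiole base (log2, difference of means of 3 arrays) in control (open) and whole far-red leaves (red) for the 18 genes with a symbol whose contrast was called in both with opposite sign. EXPB1, EXPA8, SCPL34 and XTH19 went from higher in the tip to higher in the base, and the other 14 the other way.

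Whether the difference between the ends was the same when only the tip received far-red light was tested directly, as the tip to base contrast under whole far-red minus that under local far-red, in which the control arrays cancel. It was called for 503 probe sets (2.87%), 225 higher (1.29%) and 278 lower (1.59%) under whole far-red. Of the 1464 described here 424 were among them, which is 29% of the 1464 and 84.3% of the 503, and the 2 comparisons share the whole far-red arrays. IAA29 had the second-lowest named value at -3.38 ± 0.44 (adjusted p = 7.54e-05). Under local far-red it rose by 2.90 (tip) and 1.67 (base), whereas under whole far-red it rose by 3.34 and 5.50. FHL, with no called difference under whole far-red, also had a lower contrast than under local far-red (-1.60 ± 0.38, adjusted p = 0.0199), with rises of 1.58 and 0.77 under local light, of which only the first was called.

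Of the 6 highest values of this comparison 3 belonged to pigment genes. UF3GT differed by 4.32 ± 0.49 (adjusted p = 1.92e-05), DFR by 3.64 ± 0.45 (adjusted p = 4.29e-05) and AT5MAT by 3.13 ± 0.28 (adjusted p = 7.73e-07). Local far-red changed 1.06% of tested probe sets in the base and gave a called difference between tip and base for 0.908%. The base effects of these 3 genes under local far-red were -0.56, -0.24 and -0.40, none called, beside -4.2, -4.23 and -3.35 under whole far-red. Among wall genes EXPB1 had a base effect of 0.16 under local light and 2.43 under whole light, and contrasts that differed by -2.75 ± 0.35 (adjusted p = 5.76e-05). EXLA1 rose in the base under both, by 1.69 and by 3.56, and its contrasts differed by -2.09 ± 0.26 (adjusted p = 5.63e-05). EXO did not rise in the base under local light, at -0.03, and its contrasts differed by -2.44 ± 0.28 (adjusted p = 2.01e-05).

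Among genes that rose in the tip, CHIL (2.08 ± 0.44, adjusted p = 0.00883) and AT5G10410 (1.93, adjusted p = 0.000542) also differed between the light treatments, whereas 4 others had no called difference. IAA34 rose in the tip by 3.62 under local and 3.38 under whole far-red, and the contrasts differed by -0.15 ± 0.25 (adjusted p = 0.877). For GH3.3 the tip effects were 4.70 and 5.16, and the contrasts differed by 1.60 ± 0.75 (adjusted p = 0.359). COR47 rose by 1.95 and 2.37 in the tip, with a contrast that differed by 0.04 (adjusted p = 0.970). AT2G47780 rose by 4.40 and 5.39, and its contrasts differed by 0.76 ± 0.29 (adjusted p = 0.213). The local and whole effects share the control arrays. A difference that missed the threshold does not show that the treatments acted alike on these genes.

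With touched plants in place of control plants as the reference, 2243 probe sets differed (12.8%), 1128 with a higher contrast under whole far-red (6.44%) and 1115 with a lower one (6.37%). The lowest value, -6.68, was that of AT1G06360, and the highest that of UF3GT at 5.56. AT5G45670 at -5.27, ACT11 at -4.42, CHIL at 4.78 and GH3.3 at 4.87 were among the 6 lowest or highest. The whole far-red arrays enter both this comparison and the difference against control, so genes that recur are no independent check.

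The pieces of leaf hold mixed cells, so that fewer cells of a type and less RNA per cell cannot be told apart in these levels. In the base, the mean level of the 2 measured mesophyll markers was 8.94 to 9.28 in control and 8.36 to 8.79 under whole far-red. That of the 3 probe sets matched by the phloem list was 4.28 to 4.76 and 3.79 to 3.88. The fall of this mean lay in AT1G54010, with a base effect of -1.86, whereas OPS (-0.35) and SWEET11 (0.02) had no called base effect. AT1G54010 also matched the list of cuticle, wax and lipid transfer, so its use as a phloem marker is uncertain. SWEET11, as given above, had little signal in the base to lose. The fall of the mean is therefore not read as a change in phloem. For the epidermis only TRY, a trichome regulator, was measured, with a base effect of -0.25 that was not called. The entry FDH of that list is a formate dehydrogenase in the reference table that shares its symbol with the epidermal gene FIDDLEHEAD, and it rose in both tissues. Of the 15 probe sets matched by the marker lists, FDH included, LHCB4.2 and AT1G54010 had a called difference. The mean of the dividing-cell markers ranged from 4.72 to 6.31 in control bases and from 5.00 to 5.21 under whole far-red. That of the guard-cell list, matched by MUTE, FMA, STOMAGEN and SPCH, ranged from 3.05 to 4.06 and from 3.01 to 3.11. SPCH alone of these had a called base effect, of -2.05, and the mean is no count of guard cells. The xylem marker GUT2 ranged from 5.92 to 6.17 and from 5.80 to 6.32. A score of position along the leaf, taken from 500 probe sets of the touch arrays with the base at 0 and the tip at 1, was -0.014 ± 0.029 (SD, n = 3) in control bases and 0.042 ± 0.018 under whole far-red, without overlap. In the tip it was 0.946 ± 0.011 and 0.949 ± 0.019. The part of these shifts in the wall, pigment and other base effects was not tested.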

How the data were processed

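RNA was measured on 24 Affymetrix arrays of biotin-labelled single-stranded cDNA. Per the labels, the authors deposited log2 values from the RMA algorithm of Expression Console, summarised per core gene. RMA gives all arrays the same signal distribution, so a change common to every gene cannot be seen. Signals are not read counts, and the number of arrays, 3 per group, limits the precision. The software version and genome build are not given in the sources used here, so no coordinates are given.

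A model of 8 group means over all 24 arrays was fitted with limma 3.58.1 under R 4.3.3, leaving 16 residual degrees of freedom, with eBayes without trend. Tests were two-sided, and Benjamini-Hochberg adjustment ran over the 17504 of 38408 probe sets that the platform annotation pairs with a gene. Genes were named from the 16746 probe sets with 1 gene. Of these, 16601 matched the reference table, 1777 with a symbol and 14824 as a locus name only. Of 160 genes with several probe sets, 23 had 1 or more called and 5 had all of them called. None had calls of opposite sign. On simulated data of this design, with independent normal noise, 50 of 17504 probe sets were changed at each of 1.5-, 2-, 3- and 4-fold. The change was placed in whole far-red tips only. There 94% of 3-fold and 38% of 2-fold differences were recovered, and 8 of 125 calls were false. Far fewer probe sets were changed there than the 1464 called in the data, so these rates need not hold for the data.

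Named were the 12 highest and 12 lowest differences, the 15 highest and 15 lowest with a symbol, up to 6 called members of each of 49 gene lists, the 8 largest of opposite sign, the 6 highest and 6 lowest against local far-red and touch, and 12 fixed genes. Members and lists were chosen with earlier results of these data known. Lists matched symbols and synonyms only, so many known members are not covered, and no probe set matched the MYB list. Most probe sets carried a locus name only, so a gene missing from a list was not necessarily absent from the array. Promoter motifs were not examined.

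Alternatives were the replicate block, only the 4 groups, cyclic loess, a filter on dim probe sets, all probe sets, trend and robust eBayes, median centring, each array left out and a position covariate. The p-values of the main fit set each difference of group means against the spread of arrays within the 8 groups, moderated across probe sets.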

Additional observations from a re-analysis of the deposited data

Results flagged for a closer look

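The whole far-red effect differed between leaf tip and petiole base for 1464 probe sets, and the tip to base difference of effects differed from that under local far-red for 503 and from that under touch for 2243, each by a test of the difference itself. Opposite calls in tip and base were made for 93 probe sets. The 8 with the largest differences in size were, in order, AT1G06360 at -4.74, ACT11 at -4.67, CHIL at 4.2, AT5G45670 at -4.06, AT2G12462 at 3.83, AT2G30930 at -3.55, AT5G19190 at -3.34 and BZIP61 at -3.30. CHIL and AT2G12462 rose in the tip and fell in the base, and the other 6 did the reverse.

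The 20904 probe sets that the annotation does not list with a gene also carried differences. When all probe sets of the file were tested together, 1316 of them were called (6.30%), 636 with the higher effect in the tip and 680 in the base, with differences from -4.96 to 5.82. They are unnamed here.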

How the results depend on the processing

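Of the 1464 calls, 1464 kept their direction in each of the fits that tested all of them. Where the dimmest 30% of probe sets were left out, 1432 of 1432 did. The replicate blocks, the 4 groups alone, the dim filter, all probe sets and trend and robust eBayes leave the estimates unchanged. In those fits the direction could not change. Of the 1464, 1030 were still called with only the 4 groups, and 1130 to 1241 with 1 array left out. The number called was 1066 with only the 4 groups compared, 1454 after cyclic loess, 1567 without the dimmest probe sets, 1516 with trend and robust eBayes, 1461 with each array centred on its median (39.1% with the higher effect in the tip, against 48.9%), and 1173 to 1443 when each of the 12 arrays was left out. The labels do not say whether replicate numbers pair the samples, and the main fit did not use them as pairs. Deviations of same-numbered arrays correlated at 0.000865 to 0.142. With the replicate number as a block the count was 1677, or 1476 with the block within treatment. Adding the position score as a covariate to the 4 groups gave 681, of which 588 were among the 1464. Testing all 38408 probe sets raised the counts by construction, to 2584 for the difference, 2900 in the tip, 4266 in the base, 9725 and 12469 for tip against base in control and whole far-red, 902 for the contrast with local light and 4525 for that with touch. The tip effect alone gave 696 calls with only its 2 groups, which leaves fewer arrays for the spread. HAT2 went to 0.06 with the position covariate, and SWEET11 ranged from -0.25 to 0.05 with arrays left out, above 0 without control petiole base array 3 (0.05) or whole far-red petiole base array 2 (0.04). Neither is called, and the cause was not tested. Probe sets that rose in both tissues numbered 29, and 18 without whole far-red leaf tip array 1 or 19 without control leaf tip array 1 or 2. Those that fell in both numbered 28, and 16 without control leaf tip array 1. By lists, the 4 groups alone and then with the position covariate gave 9 and 7 base calls and 3 and 2 tip calls for expansins and XTHs. The calls were 4 and 2 for wall synthesis, 5 and 3 for flavonoids and 5 and 4 for abscisic acid and cold. They were 2 and 0 for tubulins (medians -0.54 and -0.78), 8 and 4 for UDP-glycosyltransferases and 5 and 2 for glucosinolates. For autophagy they were 3 and 2, and for bZIP factors 3 and 3.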

Other observations

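Families that share the letters of their symbols, grouped after the annotation had been read, are described here as values, beside the 12.6% of all probe sets with a symbol that had a called difference. Of 12 probe sets whose symbols start with SEC, which include subunits of the exocyst that tethers secretory vesicles, 5 rose in the base and none fell, and 3 (25%) had a called difference. SEC6 rose by 0.65 in the base (difference -0.80 ± 0.18, adjusted p = 0.00608), and SEC15B rose by 0.57 (difference -0.79 ± 0.18, adjusted p = 0.00720). SEC5B had a called difference of -0.83 with neither tissue's own effect called. Of 15 PRA1 probe sets, small membrane proteins that interact with Rab GTPases, 6 rose in the base and none fell, and 3 (20%) had a called difference. The calls of PRA1.B3 and PRA1.F1 were lost in 8 and 9 of the 12 fits that left out 1 array. PRA1.B6 kept its call in all 12, with base levels that went from 5.93, 6.06 and 5.86 to 8.11, 8.03 and 8.23 while its tip groups overlapped (difference -2.32 ± 0.27, adjusted p = 4.65e-06). Of 23 TBL probe sets, a family that holds polysaccharide acetyltransferases, 7 rose in the base, 1 fell, and 3 (13%) had a called difference, a share near that of all probe sets with a symbol. TBL39 lost its call in 8 of the 12 fits. TBL37 rose by 1.46 in the base, and TBL45 fell in both tissues, by 1.99 in the tip and by 0.85 in the base.

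NdhL and NdhN, subunits of the chloroplast NADH dehydrogenase-like complex and named after their values were seen, had the higher effect in the tip through a fall in the base. NdhL went from 7.02, 7.97 and 7.29 to 5.95, 6.47 and 6.34 in the base while its tip groups overlapped (difference 1.35 ± 0.29, adjusted p = 0.00361). NdhN fell by 1.32 in the base (difference 1.40 ± 0.31, adjusted p = 0.00513). GSTU20, a glutathione transferase, fell in both tissues, by 0.92 in the tip and by 2.45 in the base.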
